A study of Mus musculus with 5 samples.

Results

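The 44 genes described here are induced by type I interferon and encode antiviral effectors, sensors and regulators. They were chosen by symbol, and all 44 are among the 21983 genes of the deposited count table. Of these, 43 passed the filter on low counts, which 12543 genes passed in all. Slfn8, a Schlafen gene, did not, with 0 and 1 read in knockout-labelled libraries 1 and 2, against 0, 1 and 0 reads in controls 1 to 3.

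The study profiled primary microglia from mouse brain by RNA sequencing and asked which processes and pathways change when microglia lose Ythdf2, a reader of the N6-methyladenosine mark on mRNA. In 2 libraries the labelled genotype is Cx3cr1CreERT2 Ythdf2fl/fl, which joins floxed Ythdf2 alleles with CreERT2, a recombinase that needs tamoxifen and is made in cells using Cx3cr1. In 3 control libraries the genotype is Ythdf2fl/fl, with the floxed alleles and no Cre named. Age, sex, drug dosing and the number of animals behind a library are not stated in the sources used here, so p-values measure the spread between these libraries only, which may be technical.

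Type I interferons bind the IFNAR receptor, whose kinases Jak1 and Tyk2 activate transcription factors of the STAT family. With Irf9 these form a complex that binds a DNA element called the interferon-stimulated response element (ISRE) near the start of its target genes. Microglia keep a low tone of these genes in the healthy brain and raise it during infection, ageing and injury.

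Facts about the libraries bear on every value below. Gene counts summed to 15743468 and 19577217 with the knockout label and to 15565624, 15744558 and 13947500 in controls 1 to 3. Ythdf2, the targeted gene, was at 104 and 127 CPM in the knockout-labelled pair, against 57.0, 69.2 and 68.8 CPM in the controls (CPM, read counts scaled by library size). It was thus higher in both libraries labelled as lacking it than in any control, against the label (edgeR log2 ratio 0.83 with SE 0.207, adjusted p = 0.431). Reads from exons that a deletion spares are part of this count, so it does not test the deletion. The libraries are therefore called knockout-labelled, and each direction below follows that label. Of the microglial markers, Csf1r was at 2416 and 3154 CPM in the knockout-labelled pair, against 3422, 4220.4 and 2372 CPM in the controls. P2ry12 was at 25.2 and 32.5 CPM in the knockout-labelled pair, against 9.24, 8.81 and 23.0 CPM in the controls. Siglech had 0 and 2 reads with the knockout label, against 17, 19 and 1 reads in controls 1 to 3.

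Promoter sequences are shown first because the ISRE is the feature through which these genes share control in textbook accounts. Windows of 300 bases, from 250 before an annotated start to 49 after it, were available from RefSeq (GRCm38.p6) for 33 of the 44 genes. The ISRE core was searched as GAAANNGAAA on both strands. It was present in a window of 17 of the 33 genes (51.5%), against 1079 of 27025 genes with a window (3.99%) and 384 of 9872 genes that were also tested for expression (3.89%). The letters TTCNNNGAA, the gamma-activated site (GAS) bound by STAT dimers, were found in 7 of the 33 genes (21.2%), against 9.55% of all genes with a window. A match describes letters in a window and is not evidence of binding. Only these exact letters were searched, so a window without a match is not shown to lack an ISRE.

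The window of Isg15 is printed whole because it held 3 overlapping ISRE core matches, more than any other member's. Isg15 encodes a ubiquitin-like protein. The window lies on the minus strand at chr4:156200769-156201068. Capitals mark the 3 matches, which begin 78, 72 and 66 bases before the start.
Isg15: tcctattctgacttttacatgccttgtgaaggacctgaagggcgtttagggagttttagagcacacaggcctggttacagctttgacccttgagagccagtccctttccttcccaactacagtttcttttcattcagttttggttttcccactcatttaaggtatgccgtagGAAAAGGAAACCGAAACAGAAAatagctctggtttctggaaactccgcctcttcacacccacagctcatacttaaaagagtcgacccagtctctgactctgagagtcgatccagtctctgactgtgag

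The next lines show 30-base stretches around matches of other members, each read along the strand that carries the match, with the core in capitals. Ifit3 and Ifit3b were chosen because they are near-identical copies, as were Oas1a and Oas1g, and within each pair the printed stretches are identical letter for letter. A match of Ifitm3, which has another 2 bases after the start, and the match of Eif2ak2 are shown because they lie 19 and 18 bases after the start, inside the transcribed sequence.
Ifit1, chr19:34640794-34640823 (minus strand): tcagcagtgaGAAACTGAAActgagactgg
Ifit3, chr19:34583397-34583426 (minus strand): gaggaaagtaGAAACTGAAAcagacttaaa
Ifit3b, chr19:34607793-34607822 (minus strand): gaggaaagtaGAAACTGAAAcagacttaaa
Oas1a, chr5:120907520-120907549 (minus strand): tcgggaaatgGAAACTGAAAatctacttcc
Oas1g, chr5:120887606-120887635 (minus strand): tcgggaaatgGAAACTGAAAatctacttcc
Ifitm3, chr7:141010706-141010735 (minus strand): aaacttctgaGAAACCGAAActgccgcaga
Eif2ak2, chr17:78882535-78882564 (minus strand): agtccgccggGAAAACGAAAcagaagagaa

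**Figure D1:**
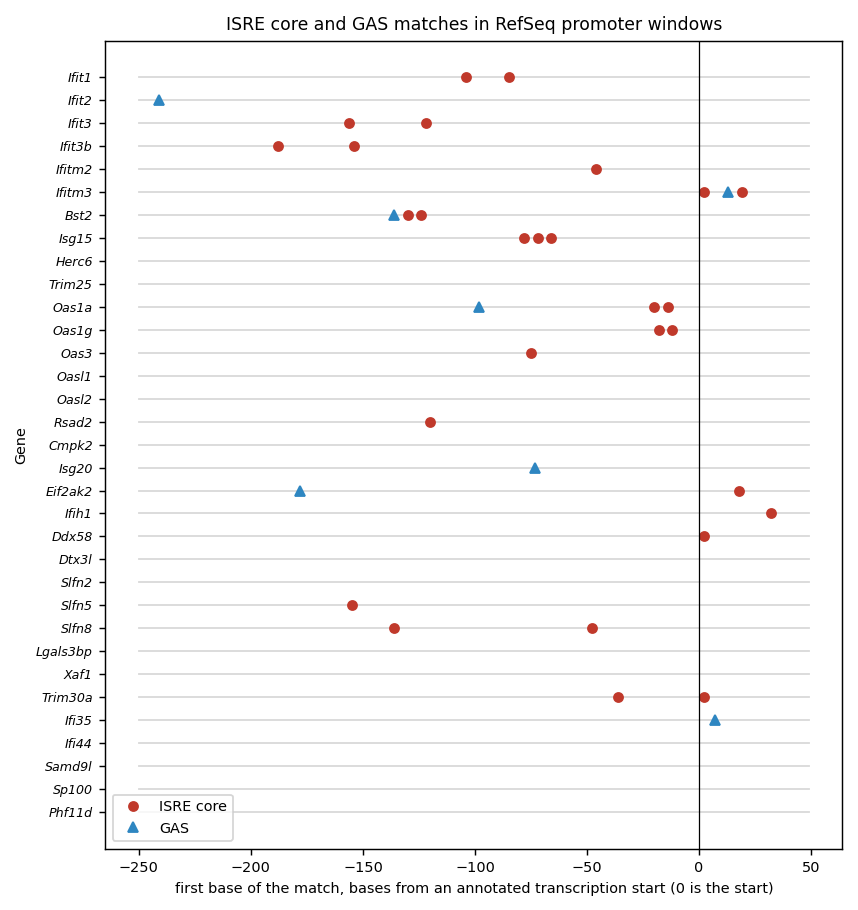
Positions of ISRE core matches (circles) and GAS matches (triangles) in the RefSeq promoter windows of 33 antiviral genes; the x axis gives the distance in bases of a match's first base, in the direction of the gene, from an annotated start at 0, and each grey line is the window. Genes with several annotated starts share a line. The ISRE matches of Isg15 stand at 78, 72 and 66 bases before the start, and those of Ifitm3, Eif2ak2, Ifih1 and Ddx58 after it.

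Members with and without the core covered overlapping ranges of differences between the labels. The 16 tested members with a match had a median log2 fold change of -0.86 (range -2.47 to 0.13), and the 16 tested members with a window and no match a median of -1.10 (range -2.58 to -0.30). The median log2 difference between knockout-labelled libraries 2 and 1 was 2.04 and 2.03 in the same sets of genes. In 4 genes, Isg15, Bst2, Oas1a and Oas1g, ISRE matches overlapped each other. In Bst2 and Ifitm3 an ISRE match also overlapped a GAS match.

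Nearly all antiviral genes had the same lowest and the same highest library, called the antiviral order below. The libraries between these changed places from gene to gene, and for most genes the labels overlapped. Knockout-labelled library 1 was the lowest of the 5 libraries for 42 of the 43 genes tested, and control 3 the highest for 42. Summed over the 44 genes, levels were 2311 and 8123 CPM in knockout-labelled libraries 1 and 2, against 6354, 5185 and 14760 CPM in controls 1 to 3. The groups overlapped in the sum.

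No member passed edgeR's quasi-likelihood test after Benjamini-Hochberg adjustment over 12543 genes: 0 of 43 were called lower, against 0% of all genes, and 0 higher, against 0%. At an unadjusted p under 0.05 edgeR found 1 of 43 lower, against 2.69% of all genes, and 0 of 43 higher, against 3.99% of all genes. DESeq2 called 0 of 43 in either direction, against 0.734% of all genes lower and 1.21% higher, and limma-voom 0 of 43, against 0% lower and 0% higher. The sign of the log2 fold change (written log2 ratio below, knockout label over control) was shared: 42 of 43 members had a negative value, against 48.9% of all genes tested. Their median was -0.90, against 0.01 over all genes. Both knockout-labelled libraries lay below every control for 5 members (11.6%), against 10.4% of all genes, and above every control for 0, against 9.85%. The share below every control is thus near the background.

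The median rested on single libraries at both ends. It was -0.40 without knockout-labelled library 1, -2.21 without knockout-labelled library 2 and -0.39 without control 3; 42 of 43 members were negative with all libraries, 35 without the first of these and 32 without control 3. Library 1 of the knockout label was lowest for 97.7% of members, against 33.1% of all genes tested, control 3 highest for 97.7% against 22.5%, and both held for 41 members (95.3%) against 12.7%. Knockout-labelled library 2 was highest for 1 member, Ifitm2, against 21.1% of all genes. The other exception was Eif2ak2, for which control 1 was lowest.

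**Figure D2:**
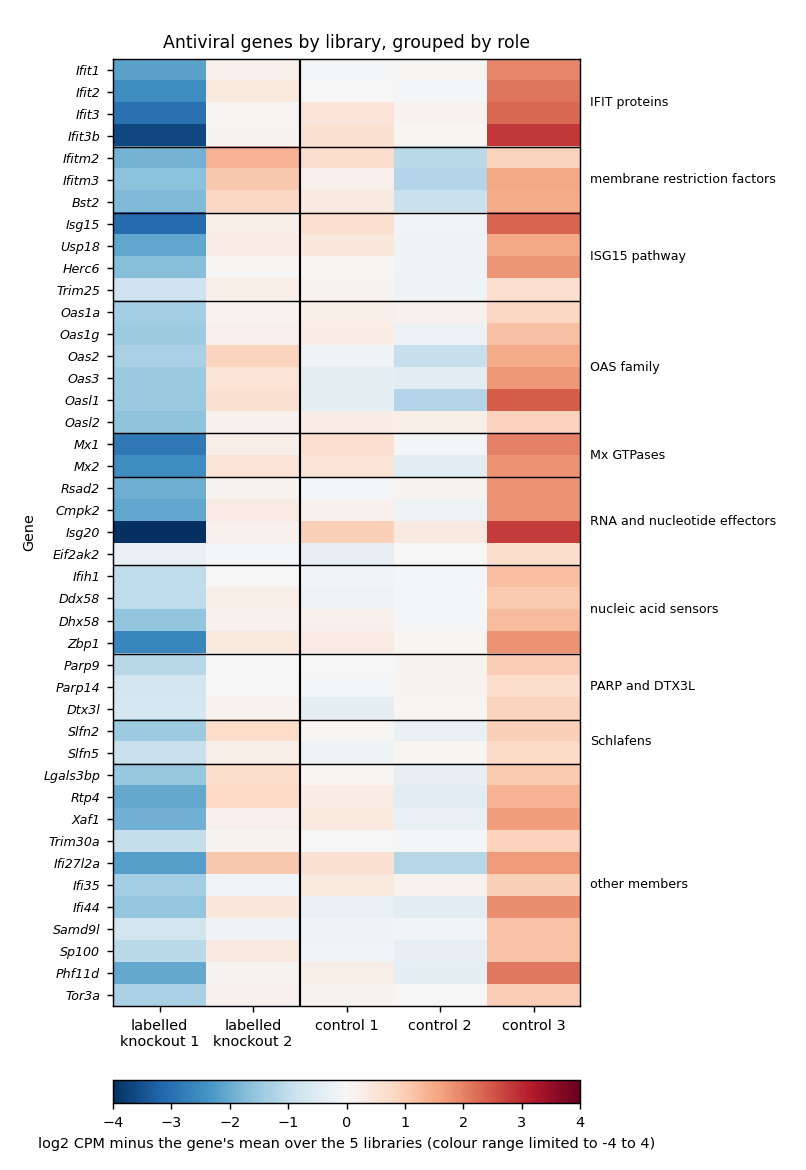
Colour shows how far each library's log2 CPM lies from the average of that gene, for the 43 antiviral genes tested (rows, grouped by role) in each library (columns, knockout-labelled libraries left of the vertical line, controls right of it). Knockout-labelled library 1 is the lowest column in 42 rows and control 3 the highest in 42.

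Against controls 1 and 2 alone, knockout-labelled library 2 had no single place. It stood above both for 25 members (58.1%), between them for 13 and below both for 5 (11.6%), where the shares over all genes were 38.9% above and 38.2% below. The 5 members below both were Ifit3, Oas1a, Oasl2, Isg20 and Ifi35. Since library 1 was lowest and control 3 highest in each, this is the same condition as groups that do not overlap. The log2 difference of knockout-labelled library 2 from library 1 ran from 0.26 in Eif2ak2 to 4.43 in Isg20, with a median of 2.09 over 43 members against 0.03 over all genes (0.60 in size). Within the controls the log2 range per gene had a median of 1.79 in members, from 0.65 in Oas1a to 3.58 in Oasl1, against 0.57 over all genes.

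The IFIT genes, whose proteins bind foreign RNA and hold back its translation, had a median log2 ratio of -1.79 over the 4 members, all negative. They lie together on chromosome 19. Ifit2 was at 35.0 and 258 CPM in knockout-labelled libraries 1 and 2, against 194, 189.8 and 865 CPM in controls 1 to 3. The means were 147 ± 158 CPM (SD, n = 2) with the knockout label and 416 ± 389 CPM (SD, n = 3) in controls (edgeR log2 ratio -1.51 with SE 1.07, adjusted p = 0.905). Knockout-labelled library 1 was 7.38-fold below its partner, and control 3 was 4.56-fold above control 2, and the groups overlapped. Ifit3 stood at 14.3 and 119.6 CPM in the knockout-labelled pair, against 162, 126 and 562 CPM in the controls (edgeR log2 ratio -2.08 with SE 1.08, adjusted p = 0.862). Both values lay below every control, with library 2 close to control 2. Ifit3b, its neighbour at chr19:34607970-34613401 (GRCm38, plus strand; Ifit3 at chr19:34583531-34588731), was at 1.13 and 16.8 CPM in the knockout-labelled pair, against 23.4, 16.3 and 109.6 CPM in the controls (log2 ratio -2.47, SE 1.31), and here library 2 was above control 2. Of the 50-base words in Ifit3 transcripts, 51.2% also occur in Ifit3b, so reads may be divided between them in ways these counts cannot show. Ifit1 stood at 11.8 and 59.9 CPM in the knockout-labelled pair, against 50.9, 54.0 and 202 CPM in the controls, again overlapping.

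Membrane restriction factors had the median log2 ratio closest to 0 of the 10 roles, at -0.28, with 2 of 3 members negative. Ifitm3, which blocks the fusion of viral with endosomal membranes, was at 114 and 758 CPM in knockout-labelled libraries 1 and 2, against 412, 158 and 1016 CPM in controls 1 to 3. Its means were 436 ± 455 CPM (SD, n = 2) with the knockout label and 529 ± 441 CPM (SD, n = 3) in controls (edgeR log2 ratio -0.28 with SE 0.993, adjusted p = 0.977). Per kilobase of exon it was the most abundant member, averaging 725.7 CPM per kilobase over the 5 libraries. Bst2, or tetherin, which holds budding virus at the cell surface, was at 93.0 and 565 CPM in the knockout-labelled pair, against 411, 174 and 888 CPM in the controls (log2 ratio -0.58, SE 0.925). In both genes library 2 exceeded controls 1 and 2 and stood below control 3. Ifitm2, a close relative of Ifitm3, stood at 4.70 and 47.1 CPM in the knockout-labelled pair, against 29.4, 8.43 and 33.3 CPM in the controls, and its log2 fold change of 0.13 (SE 0.972) was the only positive one among members. It was 0.97 without knockout-labelled library 1, -2.33 without library 2, -0.27 without control 2 and -0.36 by limma-voom. An annotated gene on the same strand, Gm45717, overlaps exons of Ifitm2 and shares 36.1% of its 50-base words.

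The ISG15 pathway attaches a ubiquitin-like protein to others during infection, and all 4 of its members were negative (median -1.32). Isg15 itself, at chr4:156199424-156200818 on the minus strand, was at 5.29 and 53.7 CPM in knockout-labelled libraries 1 and 2, against 71.4, 42.3 and 232 CPM in controls 1 to 3. Averages were 29.5 ± 34.2 CPM (SD, n = 2) with the knockout label and 115 ± 102 CPM (SD, n = 3) in controls (edgeR log2 ratio -1.96 with SE 1.14, adjusted p = 0.874), and library 2 lay between controls 1 and 2. Trim25, a ubiquitin ligase that acts on the RNA sensor RIG-I, varied less, at 149 and 314 CPM in the knockout-labelled pair, against 282, 227 and 421 CPM in the controls (log2 ratio -0.42, SE 0.424). Usp18, the protease that removes Isg15 and dampens the receptor, was at 9.58 and 50.1 CPM in the knockout-labelled pair, against 54.5, 37.2 and 118 CPM in the controls. Herc6, the main Isg15 ligase in the mouse, was at 15.8 and 53.4 CPM in the knockout-labelled pair, against 54.9, 45.6 and 176 CPM in the controls. Both repeated the order of Isg15, with library 1 lowest, control 3 highest and library 2 between controls 1 and 2.

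The OAS enzymes make short oligoadenylates that switch on RNase L, an RNA-degrading enzyme, and all 6 members were negative (median -0.89). Oas3 was at 79.9 and 325 CPM in knockout-labelled libraries 1 and 2, against 175, 167 and 754 CPM in controls 1 to 3 (edgeR log2 ratio -0.85 with SE 0.901, adjusted p = 0.926). Oasl2, a family member that keeps enzyme activity in the mouse, was at 81.0 and 282 CPM in the knockout-labelled pair, against 307, 291 and 477 CPM in the controls (edgeR log2 ratio -0.98 with SE 0.561, adjusted p = 0.874). The groups overlapped for Oas3 and did not for Oasl2, where library 2 lay close below controls 1 and 2. Oas1a behaved alike, at 57.9 and 161 CPM in the knockout-labelled pair, against 172, 166 and 261 CPM in the controls, while Oas1g, which shares 45.7% of its 50-base words with other genes, chiefly Oas1a, overlapped between groups at 16.8 and 51.6 CPM in the knockout-labelled pair, against 54.6, 37.8 and 101 CPM in the controls. Oas2 stood at 38.1 and 172 CPM in the knockout-labelled pair, against 83.1, 49.4 and 259 CPM in the controls. Oasl1, which in the mouse restrains translation of Irf7, stood at 11.1 and 47.6 CPM in the knockout-labelled pair, against 24.3, 13.9 and 167 CPM in the controls. In Oas2 and Oasl1 library 2 lay above controls 1 and 2, and leaving out control 3 turned their log2 fold changes to 0.66 and 0.62.

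The Mx genes encode GTPases that trap viral nucleoproteins. Mx1 was at 6.96 and 61.8 CPM in knockout-labelled libraries 1 and 2, against 80.6, 48.2 and 205 CPM in controls 1 to 3 (edgeR log2 ratio -1.69 with SE 1.02, adjusted p = 0.876). Mx2 was at 1.67 and 14.4 CPM in the knockout-labelled pair, against 14.3, 7.29 and 34.7 CPM in the controls (log2 ratio -1.21, SE 1.01). In both, knockout-labelled library 2 was more than 8-fold above library 1, with ratios of 8.88 and 8.66, and the groups overlapped.

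Among the effectors that act on RNA and nucleotides, Rsad2, or viperin, which makes a chain-terminating nucleotide, was at 32.6 and 135 CPM in knockout-labelled libraries 1 and 2, against 119.5, 135 and 431 CPM in controls 1 to 3 (edgeR log2 ratio -1.44 with SE 0.830, adjusted p = 0.874). Cmpk2, a mitochondrial nucleotide kinase encoded next to Rsad2 on chromosome 12, was at 21.4 and 116 CPM in the knockout-labelled pair, against 104, 78.7 and 316 CPM in the controls (log2 ratio -1.28, SE 0.899). In both genes library 2 was level with or above controls 1 and 2 and well below control 3. Isg20, an RNA exonuclease, was represented by 1 read in knockout-labelled library 1 and 71 in library 2, against 106, 70 and 332 reads in controls 1 to 3. As CPM, the values were 0.0595 and 3.84 CPM in the knockout-labelled pair, against 6.66, 4.44 and 24.7 CPM in the controls (edgeR log2 ratio -2.58 with SE 1.31, adjusted p = 0.852). This log2 ratio was the most negative among members, and the groups of Isg20 did not overlap. Eif2ak2, the kinase PKR that halts translation on sensing double-stranded RNA, had the smallest difference between the knockout-labelled libraries of all members, at 97.6 and 117 CPM in the knockout-labelled pair, against 96.6, 119 and 195 CPM in the controls (log2 ratio -0.35, SE 0.342).

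Sensors of foreign nucleic acid kept the same extremes, with knockout-labelled library 1 lowest and control 3 highest, and 4 of 4 were negative (median -0.98). Library 2 lay between controls 1 and 2 for Dhx58 and above both for Ddx58, Ifih1 and Zbp1. Ddx58, which encodes RIG-I, was at 71.5 and 169 CPM in knockout-labelled libraries 1 and 2, against 125, 141 and 298 CPM in controls 1 to 3 (edgeR log2 ratio -0.64 with SE 0.535, adjusted p = 0.924). Dhx58, a regulator of RIG-I and its relative MDA5, was at 32.4 and 109 CPM in the knockout-labelled pair, against 112, 94.4 and 236 CPM in the controls (log2 ratio -1.06, SE 0.637). Ifih1, which encodes MDA5, stood at 46.8 and 94.1 CPM in the knockout-labelled pair, against 87.2, 89.7 and 218 CPM in the controls. Zbp1, a sensor of Z-form nucleic acid that can trigger cell death, had the widest swing of these genes, at 9.58 and 77.6 CPM in the knockout-labelled pair, against 74.4, 62.0 and 206 CPM in the controls. Exons of Dhx58 overlap an antisense gene, Dhx58os, and no source used here states whether reads were assigned by strand.

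Parp14, Parp9 and Dtx3l, which add ADP-ribose or ubiquitin to proteins, were all negative (median -0.59). Parp14 was at 246 and 420.3 CPM in knockout-labelled libraries 1 and 2, against 389, 442 and 675 CPM in controls 1 to 3 (edgeR log2 ratio -0.59 with SE 0.370, adjusted p = 0.880). Dtx3l, the ubiquitin ligase partner of Parp9, was at 69.7 and 124 CPM in the knockout-labelled pair, against 85.2, 118 and 208 CPM in the controls (log2 ratio -0.50, SE 0.455). Parp9 was at 35.1 and 75.9 CPM in the knockout-labelled pair, against 75.1, 80.4 and 149 CPM in the controls (log2 ratio -0.87, SE 0.463). Exons of Parp9 and Dtx3l overlap on opposite strands of chromosome 16. In none of these genes did the groups separate, since library 2 lay at or above the lowest control.

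Of the Schlafen genes, Slfn5 was at 117 and 258 CPM in knockout-labelled libraries 1 and 2, against 189.9, 228 and 365 CPM in controls 1 to 3 (log2 ratio -0.48, SE 0.445). Slfn2, which restrains proliferation of T cells in the mouse, was at 7.49 and 34.9 CPM in the knockout-labelled pair, against 21.4, 16.9 and 40.1 CPM in the controls (log2 ratio -0.30, SE 0.695). The value of Slfn2 was 0.39 without knockout-labelled library 1 and 0.14 without control 3, so its sign rested on these libraries. Slfn5 exons overlap an antisense gene, Slfn5os.

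The remaining 11 members were all lower on average with the knockout label, and the groups overlapped in 10 of them. Lgals3bp, a secreted glycoprotein gene, was at 412 and 1909 CPM in knockout-labelled libraries 1 and 2, against 1261, 945 and 2463 CPM in controls 1 to 3 (edgeR log2 ratio -0.42 with SE 0.730, adjusted p = 0.940). Trim30a, of the TRIM family of ubiquitin ligases, was at 107 and 222 CPM in the knockout-labelled pair, against 206, 199 and 396 CPM in the controls (log2 ratio -0.70, SE 0.462). Ifi35 at chr11:101448407-101458698 (plus strand), which encodes a partner of Nmi, gave the smallest p of all members, at 19.0 and 45.5 CPM in the knockout-labelled pair, against 64.6, 54.6 and 96.4 CPM in the controls. Its means were 32.3 ± 18.7 CPM (SD, n = 2) with the knockout label and 71.9 ± 21.8 CPM (SD, n = 3) in controls, with a log2 fold change of -1.15 (SE 0.452), an edgeR unadjusted p of 0.0448 and an adjusted p of 0.725 (DESeq2 adjusted p = 0.424). Exons of Ifi35 overlap Gm11626 on the other strand. The log2 fold changes of the other 8, Rtp4, Xaf1, Ifi27l2a, Ifi44, Samd9l, Sp100, Phf11d and Tor3a, ranged from -1.67 in Phf11d to -0.57 in Sp100. Their levels ran from 6.13 CPM for Ifi44 in knockout-labelled library 1 to 378 CPM for Tor3a in control 3.

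**Figure D3:**
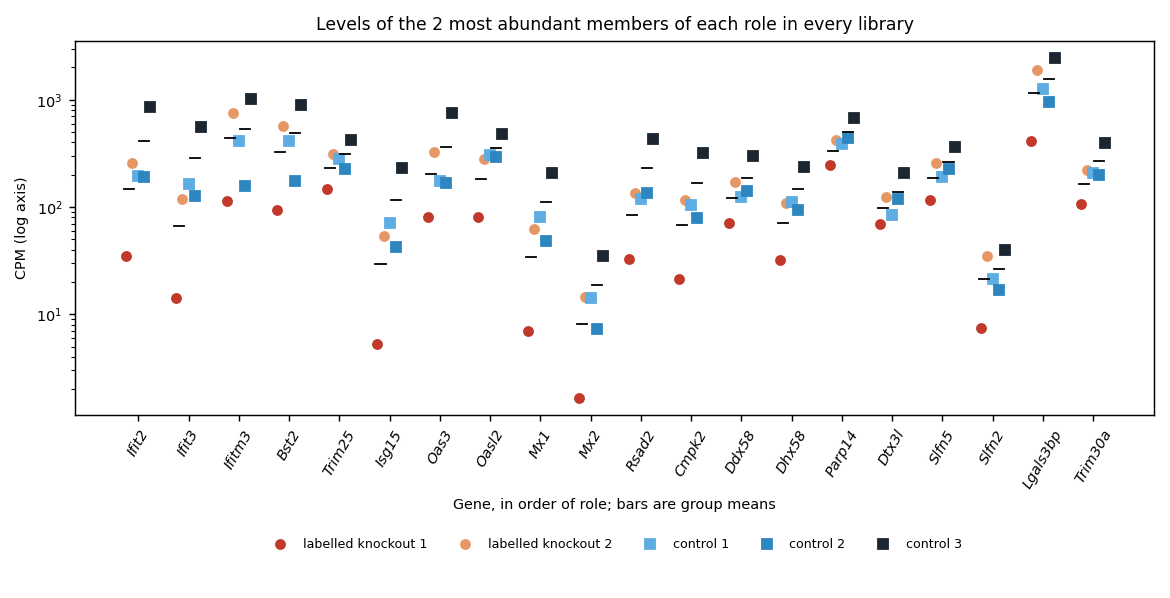
CPM on a log axis of the 2 members of each role with the highest mean CPM in each library (circles, knockout-labelled; squares, controls; short bars, group means). For each gene shown the lowest point is knockout-labelled library 1 and the highest is control 3, and the point of knockout-labelled library 2 lies below control 3.

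Leaving out single libraries moved most members the same way. Without knockout-labelled library 1, 35 members were negative and the values ran from -1.65 to 0.97; 7 had changed sign, and 10 did without control 3. Without knockout-labelled library 2 all 43 were negative, from -7.46 (Isg20, on 1 read) to -0.49, against 51.6% of all genes negative. In that fit 23 were lower at an edgeR unadjusted p under 0.05, against 7.9% of 13046 genes, and 0 higher, against 8.84%; the smallest edgeR adjusted p of a member was 0.227. Here library 1 stands alone for its label and is assumed to vary like the controls. DESeq2 with the same 4 libraries called 21 of 43 members lower, against 2.05% of all genes, and 0 higher, against 1.48%. It called 0 members with any other library left out.

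**Figure D4:**
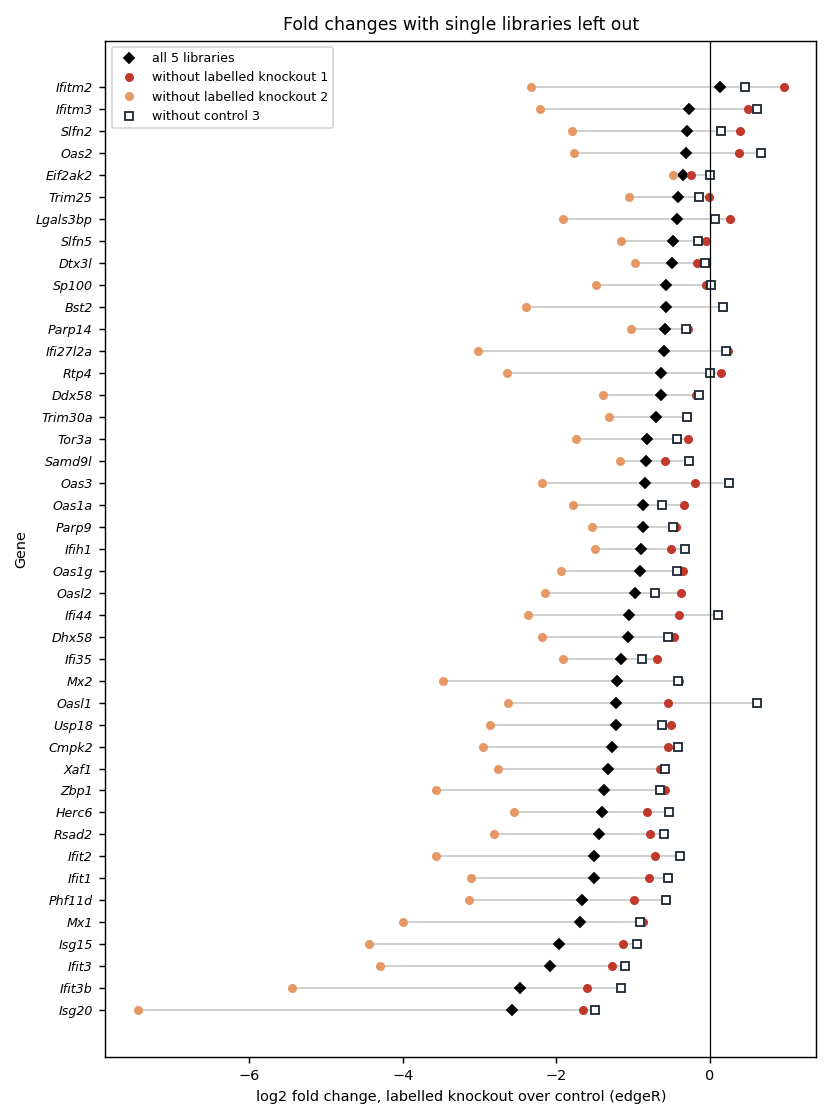
Log2 fold changes, knockout label over control, from edgeR for the 43 antiviral genes tested (y axis, ordered by the value with all libraries). Diamonds use all 5 libraries and the other symbols leave out 1 library each; values without knockout-labelled library 2 lie furthest left in nearly every gene, and those without knockout-labelled library 1 or control 3 lie closest to 0 or beyond it.

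The interferon genes themselves were almost undetected. Of 20 ligand genes in the table, 18 had no read in any library. Ifnb1 had 1 read in knockout-labelled library 2 and 1 in control 1, and Ifnk had 6 reads, all in knockout-labelled library 1. A library's floor of 3 reads corresponds to 0.178 and 0.162 CPM in knockout-labelled libraries 1 and 2, against 0.189, 0.19 and 0.223 CPM in controls 1 to 3; intervals and floors of this kind cover counting error only. No ligand gene, Ifnk included, passed the filter on low counts, so differences between libraries could not be judged at this depth.

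Receptor and JAK-STAT genes had median distances from the gene average of -0.65 and 0.16 in knockout-labelled libraries 1 and 2, against 0.10, 0.06 and 0.37 in controls 1 to 3 (log2), a narrower span than that of the antiviral genes. Of 14 tested, 11 were negative, against 48.9% of all genes, with a median log2 fold change of -0.31. Calls numbered 0 by edgeR and 0 by DESeq2. At an edgeR unadjusted p under 0.05 there were 0, against 2.69% of all genes lower and 3.99% higher. Stat2, a subunit of the complex that binds the ISRE, was at 87.4 and 253 CPM in the knockout-labelled pair, against 197, 165 and 536 CPM in the controls. Of the signalling kinases, Jak1 was steadier, at 294 and 302 CPM in the knockout-labelled pair, against 271, 319 and 259 CPM in the controls. Jak2, whose groups did not overlap, averaged 52.4 ± 3.49 CPM (SD, n = 2) with the knockout label and 65.6 ± 10.04 CPM (SD, n = 3) in controls. Tyk2 was at 101 and 155 CPM in the knockout-labelled pair, with library 2 highest, against 113, 114 and 119 CPM in the controls. Ptpn6, a phosphatase that limits signalling, was at 208 and 368 CPM in the knockout-labelled pair, against 347, 345 and 468 CPM in the controls. The receptor chain Ifnar1 was at 193 and 235 CPM in the knockout-labelled pair, against 262, 281 and 222 CPM in the controls and did not share the order of the antiviral genes, since control 2 was highest.

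Of 7 interferon regulatory factors tested, all 7 were negative (median -0.58), against 48.9% of all genes. Calls numbered 0 by edgeR and 0 by DESeq2. At an edgeR unadjusted p under 0.05, 1 was lower, against 2.69% of all genes. In 3 of the 7 both knockout-labelled values lay below every control, against 10.4% of all genes. Irf7, the factor that amplifies the response and is itself induced by it, had the order of the antiviral genes, at 51.5 and 389.6 CPM in knockout-labelled libraries 1 and 2, against 224, 156 and 1226 CPM in controls 1 to 3 (edgeR log2 ratio -1.28 with SE 1.19, adjusted p = 0.924). Irf5, which drives inflammatory cytokines, was at 159 and 229.6 CPM in the knockout-labelled pair, against 323, 309 and 379 CPM in the controls (edgeR log2 ratio -0.80 with SE 0.258, adjusted p = 0.596), and its groups did not overlap. Irf8, a lineage factor of microglia, was at 172 and 324 CPM in the knockout-labelled pair, against 320.2, 348 and 299 CPM in the controls, and Irf2, a competitor of Irf1 at response elements, at 27.1 and 54.0 CPM in the knockout-labelled pair, against 65.7, 55.1 and 61.8 CPM in the controls.

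The adaptors and kinases that link sensing to interferon production had no common direction. Of 13 tested, 6 were negative, against 48.9% of all genes, and 7 positive, with a median of 0.12. Calls numbered 0 by edgeR and 0 by DESeq2. At an edgeR unadjusted p under 0.05 there were 0, against 2.69% of all genes lower and 3.99% higher. Tlr7, a sensor of single-stranded RNA, was at 318 and 415 CPM in the knockout-labelled pair, against 219, 278 and 439 CPM in the controls. Ikbke, a kinase that activates Irf3 and Irf7, was at 142 and 386 CPM in the knockout-labelled pair, against 264, 186 and 359.8 CPM in the controls. Traf3 was at 144 and 93.9 CPM in the knockout-labelled pair, against 89.3, 107 and 83.0 CPM in the controls and Myd88, the main Toll-like receptor adaptor, at 31.4 and 63.8 CPM in the knockout-labelled pair, against 72.3, 60.3 and 89.1 CPM in the controls.

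Other interferon-induced genes outside the 44 gave the libraries the same extremes, with median distances from the gene average of -1.12 and 0.24 in knockout-labelled libraries 1 and 2, against 0.02, -0.15 and 0.97 in controls 1 to 3 (log2). Of 46 tested, 44 were negative, against 48.9% of all genes, with a median log2 fold change of -0.67. Calls numbered 0 by edgeR and 0 by DESeq2. At an edgeR unadjusted p under 0.05, 3 were lower, against 2.69% of all genes. The highest mean CPM was that of B2m, the light chain of MHC class I, at 359 and 2252 CPM in knockout-labelled libraries 1 and 2, against 1900.2, 906 and 4171 CPM in controls 1 to 3. Rnf213, a large ubiquitin ligase gene, was at 1074 and 1806 CPM in the knockout-labelled pair, against 1636, 1766 and 2942 CPM in the controls, and Znfx1, an RNA sensor gene, at 442 and 704 CPM in the knockout-labelled pair, against 684, 792 and 1079 CPM in the controls. Psmb8, an immunoproteasome subunit gene, was at 87.9 and 135 CPM in the knockout-labelled pair, against 169.8, 174 and 243 CPM in the controls (edgeR log2 ratio -0.81 with SE 0.297, adjusted p = 0.687). Cxcl9, a chemokine gene typical of interferon gamma, had 0 and 6 reads with the knockout label, against 15, 15 and 84 reads in controls 1 to 3. In 7 of the 46 genes, Psmb8 and Cxcl9 among them, both knockout-labelled values lay below every control, against 10.4% of all genes tested, the share given above for this pattern.

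**Figure D5:**
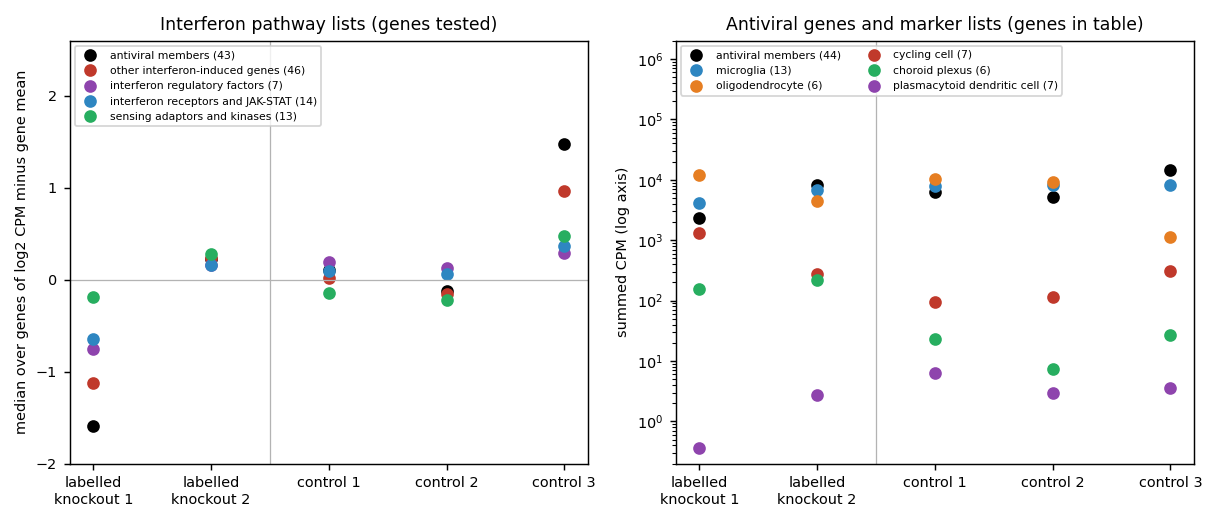
Left, the median over the genes tested of each library's distance in log2 CPM from the gene's average, for the antiviral genes and 4 pathway lists. Right, CPM summed over all genes of a list in the table, on a log axis, for the antiviral genes and 5 marker lists; knockout-labelled libraries stand left of the grey line and controls right of it. The antiviral median runs from -1.59 in knockout-labelled library 1 to 1.47 in control 3, and the oligodendrocyte sum is lowest where the antiviral sum is highest.

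Other measures also differed between the libraries, some along the antiviral order and some not, and their part in the result was not tested. The summed level of 6 oligodendrocyte markers was 11907 and 4404 CPM with the knockout label, against 10290, 9207 and 1108 CPM in controls 1 to 3, so the libraries with the highest and lowest antiviral sums had the lowest and highest of these sums. Cycling-cell markers did not follow the antiviral order, and 7 of 7 were detected in every library. They summed to 1319 and 279.6 CPM with the knockout label, against 93.5, 114 and 309.6 CPM in controls 1 to 3. They also differed by label: 7 of 7 were positive, where 48.9% of all genes were negative. In 4 both knockout-labelled values lay above every control, against 9.85% of all genes. At an edgeR unadjusted p under 0.05, 3 were higher, against 3.99% of all genes. DESeq2 called 3 higher, against 1.21% of all genes, and 0 passed the edgeR adjusted threshold. Choroid plexus markers, 6 genes, divided by label rather than along the antiviral order. They summed to 157 and 220.4 CPM with the knockout label, against 23.4, 7.48 and 26.5 CPM in controls. All 6 were higher at an edgeR unadjusted p under 0.05, against 3.99% of all genes. DESeq2 called all 6 higher, against 1.21% of all genes, and 0 passed the edgeR adjusted threshold. Markers of border-associated macrophages, 7 genes, summed to 564 and 2029 CPM with the knockout label, against 635, 495 and 1354 CPM in controls. Of these, 5 were positive and 2 negative (median log2 fold change 1.13). At an edgeR unadjusted p under 0.05, 1 was higher, against 3.99% of all genes. DESeq2 called 1 higher, F13a1, against 1.21% of all genes, and 0 passed the edgeR adjusted threshold. The 13 microglial markers summed to 4065 and 6769 CPM with the knockout label, against 7784, 8157 and 8162 CPM in controls. They did not move together: 9 of 13 were negative, from -3.66 in Siglech to 1.61 in Tmem119. At an edgeR unadjusted p under 0.05, 5 were lower and 1 higher, against 2.69% and 3.99% of all genes. The edgeR adjusted threshold was passed by 0. DESeq2 called 3 lower, Fcrls and Olfml3 among them, against 0.734% of all genes. In bulk samples fewer cells of a type and less RNA per cell cannot be told apart.

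Markers of the specialised interferon-producing cells, the plasmacytoid dendritic cells, were close to absent: 4 of 7 had no read in any library, and the list summed to 0.357 and 2.76 CPM with the knockout label, against 6.22, 2.98 and 3.57 CPM in controls, mostly from Cox6a2. Of 8 T, B and NK cell markers in the table, 5 had no read in any library, and their sum was 2.38 CPM or less. The share of reads from mitochondrial genes was 2.2% and 1.6% with the knockout label, against 1.46%, 1.95% and 1.16% in controls 1 to 3. Transcript length also moved with the libraries: in the shortest of 4 equal length classes of genes tested, the median log2 difference between knockout-labelled libraries 2 and 1 was 0.56, and in the longest class -0.41. The 17 members of the shortest class had a median of 2.6, and the 6 members of the longest class 1.35. With each library's trend on length removed, an adjustment chosen after seeing the data, the median log2 fold change of members was -0.95 and 42 of 43 stayed negative. That value compares the labels, and the difference between knockout-labelled libraries 2 and 1 is not given after the adjustment.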

How the data were processed

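Total RNA from primary microglia of mouse brain was sequenced in 5 libraries. Trizol extraction and a NEBNext Ultra kit are named per the labels' protocols. The authors deposited raw counts of reads for each gene symbol: the values are whole and their totals differ. Per the submitters' processing notes, FastQC, STAR and HTSeq were used with mm10. Tool versions, annotation and strand setting: not given in the sources used here. Groups came from sample titles; the third control's title carries 2 different numbers, and its library number was used.

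Counts were tested with edgeR 4.0.16 in R 4.3.3 (filterByExpr, TMM factors, quasi-likelihood F test of version 4, robust, two-sided), with Benjamini-Hochberg adjustment over 12543 genes, calls at an adjusted p under 0.05 and residual degrees of freedom numbering 3. Effective library sizes (TMM) scale the CPM, log2 CPM adds a prior count of 2, and an SE is the fold change divided by the root of F. Every pair of libraries differed by more than counting noise (chi-square per degree of freedom 56.2 to 287). Coordinates, exon lengths and overlaps came from GENCODE M21 (GRCm38), and shared 50-base words from its transcripts. Named members were the 2 with the highest mean CPM in each role, the 5 with the smallest p and the 3 with the highest fold change; the others are given more briefly. Of each pathway list the 3 genes with the highest mean CPM and the 2 with the smallest p were named, and Stat2, Ifnar1, Usp18 and other extra genes were added after their values were seen. Members and lists were chosen with earlier results of these data known. Alternatives included DESeq2 1.42.0, limma-voom (limma 3.58.1), other scalings and filters, a replicate block and single libraries left out; a length correction (loess span 0.3) and DESeq2 with libraries left out were added after seeing the data. Some genes that the naming rule or the marker lists include are not reported here. The steps were tested on simulated data in which genes varied independently, so swings shared by many genes between libraries were not covered.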

Additional observations from a re-analysis of the deposited data

How the results depend on the processing

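Genes called over the whole table numbered 0 in edgeR, 244 in DESeq2 and 4 with a replicate block; 0 members were called under each of these and under the other scalings, filters and edgeR settings, also with each library left out (0 to 0 in edgeR). DESeq2 called 21 members lower without knockout-labelled library 2, where it called 2.05% of all genes lower, and 0 members without any other library. The members' median log2 fold change, -0.90, stayed between -0.95 and -0.89 under the alternatives that use all libraries and ran from -2.21 to -0.39 with single libraries left out. Same-numbered libraries of the labels are not known to be paired (correlation of their deviations 0.148 and -0.562), and under the replicate block the median was -0.59. Control 3, taken by its library number, shares that number with no other library, so it carries no weight in that fit.

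Signs turned for Ifitm2 under limma-voom (-0.36) and, under the replicate block, for Ifitm2 (-0.063), Ifitm3 (0.21), Oas2 (0.34) and Oasl1 (0.32). With single libraries left out the log2 fold changes that changed sign spanned the following: Rtp4 -2.65 to 0.15, Oasl1 -2.63 to 0.62, Ifi27l2a -3.03 to 0.24, Ifitm2 -2.33 to 0.97, Ifitm3 -2.21 to 0.61, Ifi44 -2.37 to 0.11, Bst2 -2.40 to 0.18, Sp100 -1.48 to 0.019, Slfn2 -1.80 to 0.39, Oas2 -1.77 to 0.66, Oas3 -2.19 to 0.25, Lgals3bp -1.92 to 0.27. No other member changed sign under any alternative run. Depth limits the ligand genes, Slfn8 and Isg20, which had 1 read in knockout-labelled library 1.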

Other observations

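Among the 43 members tested, the log2 difference between knockout-labelled libraries 2 and 1 was larger in genes with shorter exonic length (Spearman's rho -0.674, Pearson's r -0.618 on log2 length, across 43 genes of the same libraries, given as a description). Over 12510 genes with a length the values were -0.404 and -0.394. In the 2 middle classes of 4 by length the median difference was 0.15 and -0.11 over all genes and 2.17 and 1.11 over the 11 and 9 members there. Between controls 3 and 2 the medians, from the shortest class to the longest, were 0.32, 0.06, -0.05 and -0.19 over all genes and 1.97, 2.01, 0.89 and 1.36 over members.

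Per kilobase of exon, the 4 most abundant members over the 5 libraries were Ifitm3 (725.7 CPM per kilobase), Lgals3bp (491), Bst2 (472) and Ifi27l2a (193), followed by Ifit3 (113) and Isg15 (107). In the first 4 of these, knockout-labelled library 2 stood above controls 1 and 2, as in 58.1% of members tested and 38.9% of all genes. In Ifit3 it lay below both, and in Isg15 between them.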
